A study of Homo sapiens with 24 samples.

Results

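Divergent coding promoters are places where 2 protein-coding genes start back to back, 1 on each strand, and are transcribed away from each other. Pairs of GENCODE protein-coding genes on hg19 were taken where the minus-strand gene lay upstream, the gene 5′ ends were at most 1000 bp apart and the genes did not overlap. This gave 883 pairs, which held 1703 of the 20098 coding genes of chromosomes 1 to 22 and X (8.47%). Each pair was examined in a window of 4000 bp centred on the midpoint between the 5′ ends, and was set against 15015 single coding promoters, which had no other coding 5′ end within 5000 bp, making 15898 windows in all. Pairs were not held to this clear distance, so further coding 5′ ends could lie in or near their windows. The part of this in the differences between classes was not tested. The rule used only the annotation and none of the marks. Some pairs share a gene or a readthrough gene model, and the 883 pairs fell on 822 loci when 1 pair was kept per shared gene.

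The marks were mapped by chromatin immunoprecipitation and sequencing (ChIP-seq) in PANC-1, an established human pancreatic ductal carcinoma line. Cells of the siControl group carried a control siRNA and were untreated, cells of the siControl+TGFβ group carried the same siRNA and received TGFβ at 10 ng/ml for 48 h, and cells of the siPHF13+TGFβ group carried an siRNA against PHF13, a reader of H3K4me3, and the same TGFβ treatment. All groups were transfected, and there was no group with PHF13 depleted and TGFβ absent. Each group had 2 libraries for each of H3K4me3, H3K27ac and H3K27me3, 18 peak lists in all. Whether the 2 libraries of a group came from separate cultures is not stated, so p-values measure the spread between these libraries, which may be technical.

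The peak lists differed in length. They give no reads per peak, and the read depth of the libraries was not used here. H3K4me3 lists held 27869 to 39202 peaks, H3K27ac lists 6004 to 36104 and H3K27me3 lists 59573 to 165717, and siPHF13+TGFβ replicate 1 was the shortest for every mark. Inside the lists labelled siPHF13+TGFβ, peak names carry NCT, which in the study stands for siControl+TGFβ, whereas names inside the siControl+TGFβ lists carry 3AT. Groups follow the labels, as does the study's own quality table. An exchange of these labels would turn the directions given for PHF13 depletion and would set other lists against siControl in the TGFβ comparison. That table gives longer lists than those deposited for siPHF13+TGFβ replicate 1, for all 3 marks, and for H3K27me3 of siControl replicate 1. The reason was not tested. The windows of KRT19, a keratin of ductal epithelium, and of VIM, the mesenchymal filament vimentin, had H3K4me3 in 6 and 5 of 6 lists, while those of PTPRC, CDH5 and ALB, which mark leukocytes, endothelium and hepatocytes, had it in 0.

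H3K4me3 is placed at active and poised promoters, H3K27ac at active promoters and enhancers, and H3K27me3 by the Polycomb machinery at silenced genes. A promoter with both H3K4me3 and H3K27me3 is called bivalent and is often found at developmental genes. Most human promoters start some transcription in both directions, usually with an unstable non-coding RNA on the far side. In a divergent coding pair that far side is a gene as well. Such pairs are known to hold many housekeeping genes, among them genes of DNA repair, of mitochondria and of the histone clusters, and to lie mostly in CpG islands without a TATA box.

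The 5′ ends of a pair lay 1 to 995 bp apart, with a median of 131 bp and quartiles of 69 and 247 bp, and 714 pairs (80.9%) were at most 300 bp apart. Each of the following 300-bp stretches is centred on a midpoint and written along the plus strand of hg19. The first 4 are classic divergent pairs with H3K4me3 and H3K27ac, the next 2 are the collagen IV pairs, which had H3K4me3 and H3K27me3, and the last had H3K27me3 over nearly the whole window and a TATA box. Capitals mark matches on either strand to 10 short strings of letters. The ETS site was searched as CCGGAAG, a core bound by the ETS family of transcription factors. The SP1 box was searched as GGGCGG, which recruits SP1 and its relatives to CpG islands. The CCAAT box was searched by the letters of its name, and the TATA box, found at many regulated promoters, as TATAAA. For NRF1, a regulator of mitochondrial genes, the letters were GCGCATG. For YY1, a zinc finger protein often placed at start sites, they were AAGATGG. The string TCTCGCG has no factor named here. The E-box, where MYC and USF proteins bind, was searched as CACGTG. The CRE, the element of cyclic AMP response, was searched as TGACGTC, and the site of AP-1, the dimer of FOS and JUN proteins, as TGACTCA. Where 2 strings overlapped, both were counted.
SARS2/MRPS12, chr19:39421344-39421643: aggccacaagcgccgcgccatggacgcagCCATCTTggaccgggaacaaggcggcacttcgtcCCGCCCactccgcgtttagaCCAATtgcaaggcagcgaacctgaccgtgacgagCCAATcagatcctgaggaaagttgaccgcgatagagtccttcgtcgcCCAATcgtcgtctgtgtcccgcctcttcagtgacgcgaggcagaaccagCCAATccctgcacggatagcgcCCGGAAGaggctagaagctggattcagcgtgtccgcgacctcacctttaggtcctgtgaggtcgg
PPAT/PAICS, chr4:57301695-57301994: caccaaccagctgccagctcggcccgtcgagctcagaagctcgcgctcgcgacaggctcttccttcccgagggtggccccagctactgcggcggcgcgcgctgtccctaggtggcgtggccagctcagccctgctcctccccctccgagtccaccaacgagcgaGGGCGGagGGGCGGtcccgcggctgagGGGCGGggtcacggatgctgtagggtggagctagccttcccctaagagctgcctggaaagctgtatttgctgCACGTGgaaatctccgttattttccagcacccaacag
PREPL/CAMKMT, chr2:44588894-44589193: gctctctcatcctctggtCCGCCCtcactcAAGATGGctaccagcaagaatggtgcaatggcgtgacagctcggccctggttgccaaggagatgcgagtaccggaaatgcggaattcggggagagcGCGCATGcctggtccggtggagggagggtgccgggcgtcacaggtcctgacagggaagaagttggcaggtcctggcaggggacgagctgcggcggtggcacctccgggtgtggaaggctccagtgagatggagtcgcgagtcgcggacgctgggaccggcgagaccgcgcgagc
OSGEP/APEX1, chr14:20923150-20923449: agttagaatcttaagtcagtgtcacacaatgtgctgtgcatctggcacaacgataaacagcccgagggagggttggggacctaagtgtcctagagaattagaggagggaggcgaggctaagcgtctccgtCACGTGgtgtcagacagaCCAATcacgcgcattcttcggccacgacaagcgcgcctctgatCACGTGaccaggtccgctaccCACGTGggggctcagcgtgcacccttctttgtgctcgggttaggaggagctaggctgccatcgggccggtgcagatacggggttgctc
COL4A4/COL4A3, chr2:228029105-228029404: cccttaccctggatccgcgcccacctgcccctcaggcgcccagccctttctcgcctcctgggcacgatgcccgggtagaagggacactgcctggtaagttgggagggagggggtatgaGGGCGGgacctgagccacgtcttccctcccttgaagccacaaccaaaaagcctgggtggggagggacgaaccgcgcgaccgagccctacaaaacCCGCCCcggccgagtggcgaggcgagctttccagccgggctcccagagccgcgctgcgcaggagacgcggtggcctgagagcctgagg
COL4A6/COL4A5, chrX:107682748-107683047: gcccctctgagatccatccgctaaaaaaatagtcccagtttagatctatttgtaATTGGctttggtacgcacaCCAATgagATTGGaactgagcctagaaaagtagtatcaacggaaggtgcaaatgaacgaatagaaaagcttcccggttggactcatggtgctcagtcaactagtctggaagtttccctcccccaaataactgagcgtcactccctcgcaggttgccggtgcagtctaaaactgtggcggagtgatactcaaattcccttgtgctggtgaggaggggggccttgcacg
DUOX2/DUOXA2, chr15:45406298-45406597: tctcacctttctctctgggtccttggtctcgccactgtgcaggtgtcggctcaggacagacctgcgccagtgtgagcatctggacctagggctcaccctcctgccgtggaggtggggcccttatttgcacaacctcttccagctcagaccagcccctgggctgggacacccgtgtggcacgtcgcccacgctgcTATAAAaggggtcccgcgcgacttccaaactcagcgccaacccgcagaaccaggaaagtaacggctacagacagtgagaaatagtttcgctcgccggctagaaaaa

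SARS2 and MRPS12 encode a mitochondrial seryl-tRNA synthetase and a mitochondrial ribosomal protein, and their stretch held 4 CCAAT boxes, 1 ETS site, 1 SP1 box and 1 YY1 site. PPAT and PAICS encode enzymes of purine synthesis, and their stretch held 3 SP1 boxes and 1 E-box. OSGEP, which modifies tRNA, and APEX1, an endonuclease of base excision repair, had 3 E-boxes and 1 CCAAT box in their stretch. PREPL, a peptidase, and CAMKMT, which methylates calmodulin, had 1 SP1 box, 1 NRF1 site and 1 YY1 site. The type IV collagen genes encode chains of basement membranes. COL4A4/COL4A3 held 2 SP1 boxes and COL4A6/COL4A5 held 3 CCAAT boxes.

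Nearly every divergent pair had an H3K4me3 peak, in whichever list it was sought. The siControl libraries had H3K4me3 at 96.4% and 96.6% of pairs, the siControl+TGFβ libraries at 96.9% and 96.6%, and the siPHF13+TGFβ libraries at 96.6% and 96.7%, a mean of 96.6% ± 0.185 (SD, n = 6 libraries). At single promoters it was 62.6% ± 1.44 (SD, n = 6), and the 2 sets of values did not overlap. The difference was 34.1 percentage points ± 1.34 (SD), higher in 6 of 6 libraries (two-sided exact sign-flip permutation test over libraries, p = 0.03125, adjusted p = 0.03125 over the 3 marks), and this p is the smallest that 6 libraries allow. H3K4me3 was present in all 6 lists at 851 pairs, in 1 to 5 lists at 5 pairs and in none at 27.

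H3K27ac was also more frequent at pairs. The siControl lists had it at 81.1% and 89.9% of pairs and the TGFβ-treated control lists at 92.3% and 90.0%. The siPHF13+TGFβ lists had it at 36.7% and 91.8%, where the low value is the list of 6004 peaks. At single promoters the shares ran from 14.7% to 49.3%. Pairs exceeded single promoters by 40.8 points ± 9.28 (SD, n = 6 libraries, exact sign-flip permutation p = 0.03125, adjusted p = 0.03125), and by 44.5 points without siPHF13+TGFβ replicate 1. H3K27ac was in all 6 lists at 321 pairs, in 5 at 395 and in none at 66.

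H3K27me3 was the exception, since few pairs carried it. The siControl lists had it at 7.25% and 10.2% of pairs, siControl+TGFβ at 8.38% and 8.83%, and siPHF13+TGFβ at 5.21% and 8.38%. At single promoters the shares ran from 18.97% to 36.8%. The difference was -20.6 points ± 4.30 (SD, n = 6, exact sign-flip permutation p = 0.03125, adjusted p = 0.03125), with pairs lower in every library. H3K27me3 was absent from all 6 lists at 784 pairs (88.8%) and at 59.8% of single promoters. It was present in all 6 at 41 pairs.

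**Figure D1:**
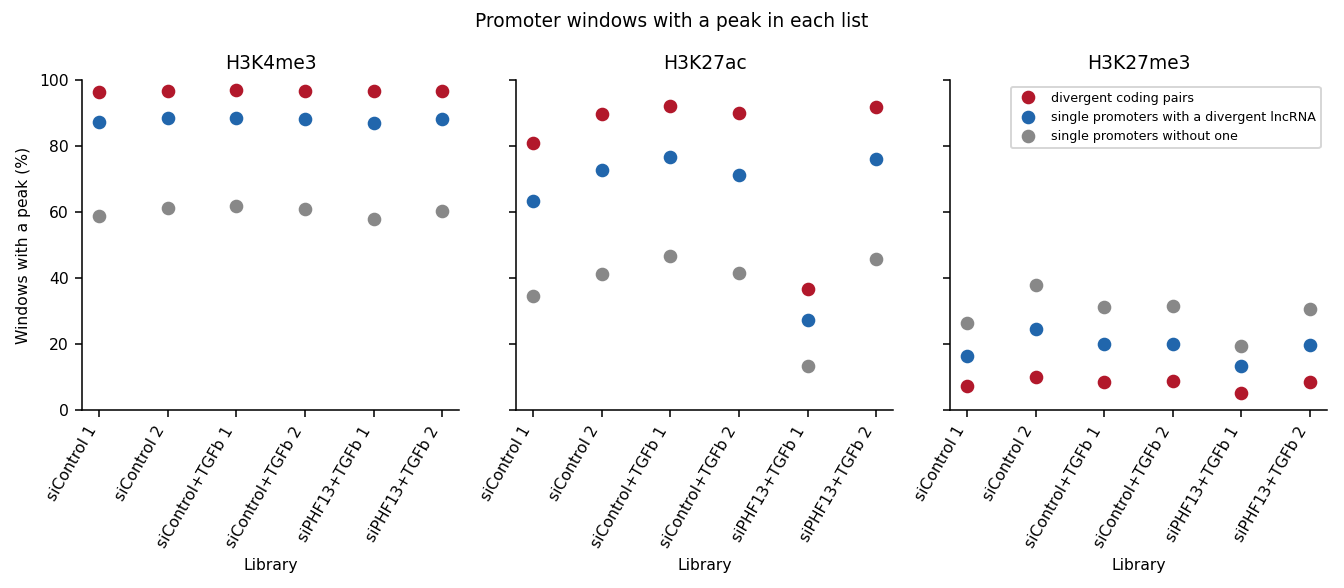
Share of promoter windows with a peak (%) in each of the 6 libraries of a mark, for divergent coding pairs (n = 883), single promoters with a divergent lncRNA (n = 1259) and single promoters without one (n = 13756). Each point is 1 peak list. Pairs lie highest for H3K4me3 and H3K27ac and lowest for H3K27me3 in every list, and the H3K27ac point of siPHF13+TGFβ replicate 1 is low in all classes.

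The class of single promoters mattered for the size of these gaps. Of the single promoters, 1259 had the 5′ end of a divergent long non-coding RNA gene (lncRNA) within 1000 bp. These stood between the pairs and the rest: 88.0% ± 0.690 of them had H3K4me3, 64.6% ± 18.8 had H3K27ac and 19.02% ± 3.78 had H3K27me3 (mean and SD, n = 6 libraries). Against them the pairs differed by 8.69 points for H3K4me3, 15.7 for H3K27ac and -11.0 for H3K27me3. CpG content mattered likewise. The median ratio of observed to expected CpG in the central 300 bp was 0.878 at pairs and 0.700 at single promoters, and 90.4% against 57.0% of windows had a ratio of at least 0.6. Among those CpG-rich windows the gap in H3K4me3 fell to 8.11 points and that in H3K27ac to 24.3, while that in H3K27me3 was -19.8. With the same ratio taken over the whole window, the gaps were 5.48, 23.7 and -20.6 points. Each of these differences kept its sign in all 6 libraries (exact sign-flip permutation, adjusted p = 0.03125).

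The marks also differed between classes where H3K4me3 was present in both. Of windows with H3K4me3 in all 6 lists, pairs (n = 851) had H3K27ac in 93.3% and single promoters (n = 8977) in 72.2% in siControl replicate 2, and in 95.8% and 80.0% in siControl+TGFβ replicate 1. Over the 6 libraries the gap was 18.6 points for H3K27ac and -17.4 points for H3K27me3 (exact sign-flip permutation, adjusted p = 0.03125 for both). Of the 32 pairs without H3K4me3 in every list, none had H3K27ac in any list, which can be read from the shares of 0% in each library.

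When the marks were combined in the siControl libraries, 695 pairs (78.7%) had H3K4me3 and H3K27ac in both lists and H3K27me3 in neither, against 33.2% of single promoters. H3K4me3 with H3K27me3 and no H3K27ac was found at 34 pairs (3.85%) and at 11.6% of single promoters. Only 12 pairs (1.36%) had H3K27me3 alone and 12 had no mark, while 9.71% and 18.7% of single promoters did. In siControl+TGFβ, 766 pairs (86.7%) had H3K4me3 and H3K27ac without H3K27me3. In siPHF13+TGFβ only 318 did, because both lists were required and the H3K27ac list of replicate 1 was short, and the lists of some mark disagreed at 509 pairs.

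H3K4me3 covered more of the window at pairs and lay on both sides of the start sites. The lengths sum all peaks inside a window, so they are not widths of single peaks. Pairs held 2 or more H3K4me3 peaks more often in every list, for example 28.4% against 16.7% in siControl replicate 2. Greater length did not go with greater fold over background. The strongest H3K4me3 peak of a window, by q-value, had a lower median fold at pairs in every list, 6.05 against 7.16 in siControl replicate 2. Its median percentile by q-value within the list was higher at pairs in every list, 81.7 against 75.9 in that library. In windows with a peak, the average H3K4me3 length was 2025 and 2109 bp for siControl, 2229 and 2179 bp for siControl+TGFβ, and 1802 and 2092 bp for siPHF13+TGFβ. At single promoters the corresponding averages ran from 1420 to 1789 bp. The log2 ratio was 0.33 ± 0.015 (SD, n = 6 libraries, exact sign-flip permutation p = 0.03125, adjusted p = 0.03125). For H3K27ac it was 0.18 ± 0.069, with 1129 bp ± 448 at pairs and 985 bp ± 372 at single promoters, and for H3K27me3 it was -0.30 ± 0.075, with 1579 bp ± 248 and 1952 bp ± 366 (SD, n = 6, exact sign-flip permutation p = 0.03125 and adjusted p = 0.03125 for both). When coverage under 200 bp was not counted as a peak, the H3K27ac ratio was 0.15 with an adjusted p of 0.0625 by the same exact test. With lists cut to the strongest 50% of peaks, the H3K27me3 ratio was -0.28, also at 0.0625. In H3K27ac lists cut to equal length, the gap in presence was 27.1 points and the ratio 0.059. Among windows with a CpG ratio of at least 0.6 in 300 bp, the H3K27me3 ratio was -0.52. Against single promoters with a divergent lncRNA the ratios were 0.092 for H3K4me3 and 0.050 for H3K27ac.

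The arrangement around the start sites differed more than the total. At pairs, H3K4me3 covered 1034 bp ± 72.4 on the side of the minus-strand gene and 1038 bp ± 78.0 on the side of the plus-strand gene (mean and SD, n = 6 libraries). Single promoters had 504 bp ± 62.6 upstream and 1148 bp ± 69.5 downstream. The less covered side of the window held 802 bp ± 75.9 at pairs and 455 bp ± 60.1 at single promoters, a difference of 347 bp ± 17.9 (SD, n = 6 libraries, exact sign-flip permutation p = 0.03125, adjusted p = 0.03125). Against single promoters with a divergent lncRNA this difference was 119 bp, and that of H3K27ac was 35.2 bp. The downstream side of a single promoter was covered further than either side of a pair. For H3K27ac the less covered side differed by 122 bp ± 64.2 and for H3K27me3 by -211 bp ± 87.9 (exact sign-flip permutation, adjusted p = 0.03125 for both).

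By distance, H3K4me3 at pairs rose to 86.7% of windows covered at 410 bp on the minus-strand side and to 87.0% at 330 bp on the plus-strand side, and fell to 69.6% at the midpoint. H3K27ac showed the same 2 shoulders, at 61.5% and 59.4%, and a dip to 46.5%. Single promoters without a divergent lncRNA had 1 main crest, 52.1% at 270 bp downstream for H3K4me3, and 29.4% of them were covered 490 bp upstream, where pairs reached 85.7%. With a divergent lncRNA, single promoters had a smaller upstream shoulder of 73.0% beside 81.9% downstream. H3K27me3 at pairs stayed between 2.68% near the midpoint and 3.96% further out. The strongest H3K4me3 peak of a pair window had its summit between the 5′ ends in 2.11% to 2.46% of pairs with a peak, and its median distance from the midpoint was 520 to 596 bp. The stretch between the 5′ ends is short, with a median of 131 bp in a window of 4000 bp, and no expected share was computed.

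**Figure D2:**
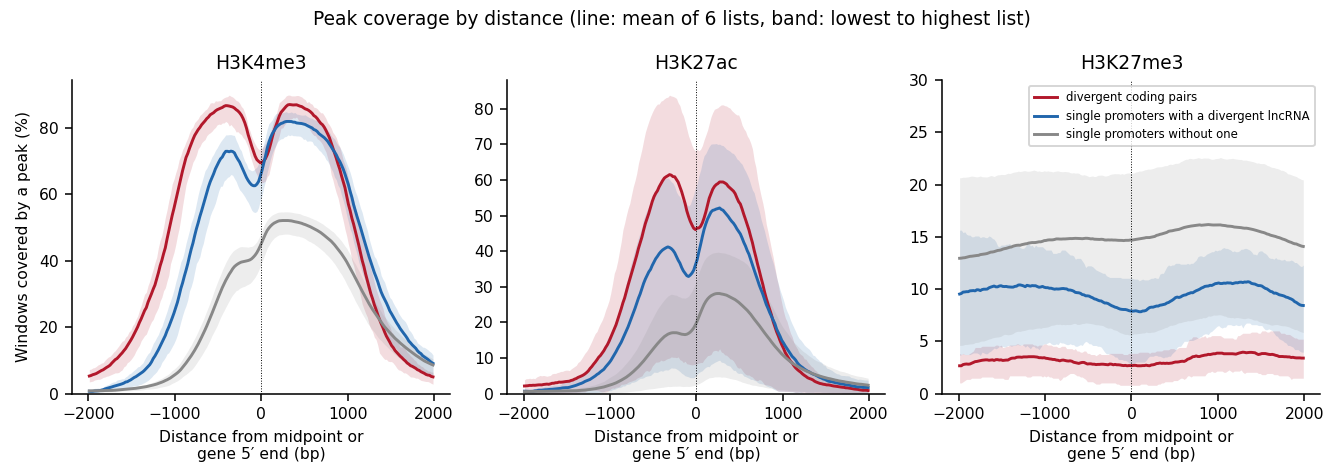
Share of windows covered by a peak (%) by distance in bp from the midpoint of a pair, or from the 5′ end of a single promoter with its gene to the right. Lines are means of 6 lists and bands run from the lowest to the highest list. Pairs have shoulders of H3K4me3 of 86.7% and 87.0% on the 2 sides with a dip to 69.6% between them, single promoters are weighted to the downstream side, and H3K27me3 at pairs stays under 4%.

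H3K4me3 lengths lay close together across spacings of the start sites. H3K4me3 covered 2045 bp ± 142 in the 343 pairs with 5′ ends up to 100 bp apart, 2080 bp ± 150 in the 371 pairs more than 100 and up to 300 bp apart and 2112 bp ± 172 in the 169 pairs over 300 and up to 1000 bp apart (mean and SD over 6 libraries). Within libraries the steps were 35.3 bp ± 24.2, higher in 6 of 6, and 31.3 bp ± 30.3, higher in 5 of 6 (SD, exact sign-flip permutation, adjusted p = 0.0536 and 0.125 over 12 steps). H3K27ac was present at 81.0%, 80.2% and 79.1% of pairs in the same order. H3K27me3 was present at 5.30%, 8.67% and 12.2%, with steps of 3.37 and 3.56 points that were positive in 6 of 6 libraries each (exact sign-flip permutation p = 0.03125, adjusted p = 0.0536). It was in no list at 91.5%, 87.9% and 85.2% of pairs. The CpG ratio of the central 300 bp fell along the same order, with medians of 0.915, 0.888 and 0.723, and its part in the H3K27me3 order was not tested. In pairs over 300 bp apart these central 300 bp lie between the 5′ ends and reach neither.

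Single pairs could be uneven although the class was even. H3K4me3 lay on 1 side most unevenly at SIL1/MATR3, ATP6V1G2-DDX39B/NFKBIL1, HRAS/LRRC56, LONP1/CATSPERD and HSPA1L/HSPA1A. At SIL1/MATR3 it covered 136 bp on the side of SIL1, a nucleotide exchange factor of the endoplasmic reticulum, and 1876 bp on the side of MATR3, a nuclear matrix protein. At LONP1/CATSPERD it covered 1893 bp toward LONP1, the mitochondrial protease, and 214 bp toward CATSPERD, a subunit of a sperm calcium channel. At HSPA1L/HSPA1A it covered 90.2 bp toward HSPA1L, a testis-rich HSP70, and 1742 bp toward HSPA1A, the stress-inducible HSP70.

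The 27 pairs without H3K4me3 in any list held several tissue-restricted genes. They included AGBL4/ELAVL4, where ELAVL4 is a neuronal RNA-binding protein, DCST2/DCST1, which act in sperm-egg fusion, CIDEB/LTB4R, GLRA3/ADAM29, GSG1L2/GLP2R and the testis histone pair H2AC1/H2BC1. The nearest H3K4me3 peak of any list lay 308786 bp from the midpoint of AGBL4/ELAVL4, 15597 bp from that of DCST2/DCST1 and 5453 bp from that of H2AC1/H2BC1. In others at least 1 gene is in general use. ATP5MJ/TDRD9 joins a subunit of the mitochondrial ATP synthase to a testis helicase, ARRDC5/UHRF1 has the DNA methylation factor UHRF1, BTBD18/CTNND1 has p120 catenin and ANGEL1/LRRC74A has a ubiquitous phosphatase. Their nearest H3K4me3 peaks lay 6307, 6207, 8354 and 12848 bp away, outside the window, and the midpoint rests on the outermost annotated 5′ end of each gene. The median CpG ratio of the 27 was 0.425. H3K27me3 was found in 6 of 6 lists at TRIM50/FKBP6, with 854, 1437, 1458, 107, 139 and 502 bp, and at TRPC5/RTL4, with 1994, 4000, 2807, 4000, 227 and 3634 bp (siControl, siControl+TGFβ and siPHF13+TGFβ replicates 1 and 2 in order). At ANGEL1/LRRC74A it was found in 5 of 6, with 349, 2553, 1672, 409, 0 and 1487 bp in the same order. These values spread widely between replicates.

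Among pairs with H3K4me3, H3K27me3 was found in all 6 of its lists at 37, which is 4.19% of pairs against 9.84% of single promoters. HPCAL4/PPIE was covered by H3K27me3 over the full 4000 bp in each of the 6 lists, with 319 to 1352 bp of H3K4me3. HPCAL4 is a neuronal calcium sensor and PPIE a cyclophilin of the spliceosome. COL4A4/COL4A3 had 4000, 4000, 3459, 4000, 2520 and 4000 bp of H3K27me3 in the library order given above, 1032 to 1835 bp of H3K4me3 and no H3K27ac in any list. COL4A6/COL4A5 had 1002, 3866, 618, 1616, 527 and 1212 bp of H3K27me3, a spread of 1238 bp (SD) around a mean of 1474 bp, and also lacked H3K27ac. DUOX2/DUOXA2, an NADPH oxidase of epithelia with its maturation factor, had 3130 to 4000 bp of H3K27me3, and its H3K4me3 lay only on the DUOX2 side, at 956 bp on average. GABRA4/GABRB1, 2 subunits of the GABA receptor, OSTM1/NR2E1, LMF1/SOX8, SOX18/TCEA2 and TRPM5/KCNQ1 belonged to the same group. Over the 37 pairs the median was 1457 bp of H3K4me3 and 1631 bp of H3K27me3, and the other pairs with H3K4me3 in all 6 lists had a median of 2125 bp.

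In 24 of the 37 pairs H3K27me3 did not keep to 1 side of the midpoint in all 6 lists. In the other 13 it lay on the side of 1 gene only in all 6 lists. At SYMPK/FOXA3 (chromosome 19, SYMPK 46318668 to 46366452 and FOXA3 46367247 to 46377055, hg19) the FOXA3 side held 1715, 1922, 1485, 1691, 1134 and 1841 bp of H3K27me3 in the library order given above, and the SYMPK side held 0 bp in all 6. FOXA3 is a transcription factor of liver and gut, and SYMPK is the scaffold symplekin of mRNA 3′ end processing. H3K4me3 covered 1244 to 1611 bp on the SYMPK side and 204 to 1007 bp on the FOXA3 side, and H3K27ac, present in 6 of 6 lists, lay on the SYMPK side alone. PUS3/DDX25 had the same order: 440 to 1553 bp of H3K27me3 only toward DDX25, a testis RNA helicase, and H3K27ac only toward PUS3, a pseudouridine synthase, at 243 to 1212 bp. At ZDHHC24/ACTN3 H3K27me3 covered 1228 bp on average toward ACTN3, the alpha-actinin of fast muscle fibres, at BLVRB/SPTBN4 1136 bp toward SPTBN4, a neuronal spectrin, and at HSDL1/DNAAF1 757 bp toward DNAAF1, an assembly factor of ciliary dynein.

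More H3K4me3 lay on the side away from H3K27me3 in 10 of these 13 pairs, in every one of the 6 lists for each of the 10. Among the others were CCDC38/AMDHD1, with more H3K4me3 on the H3K27me3 side in 6 of 6 lists, and FAM13A/TIGD2, with 895 and 893 bp on the 2 sides. Over all 37 pairs with both marks there was no such order. The more covered sides of H3K4me3 and H3K27me3 differed at 18 of them and were the same at 19. H3K27ac was found in at least 1 list at 13 of the 13 one-sided pairs and at 6 of the 24 others, and in at least 5 lists at 7 and 0. Of all 883 pairs, 92.5% had it in at least 1 list and 81.1% in at least 5. At CAPN14/EHD3, 1 of the 13, it was 154 bp in 1 list. The one-sided pairs had a median of 1826 bp of H3K4me3 and the 24 others 1129 bp. The nearest H3K27me3 to the midpoint lay 298 bp away at SYMPK/FOXA3 and 1348 bp away at ZNF697/PHGDH (median of 6 lists). The 13 pairs were picked by H3K27me3 itself, so the sides are a description with no test, and a region of H3K27me3 that ends inside a fixed window can lie on 1 side only.

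**Figure D3:**
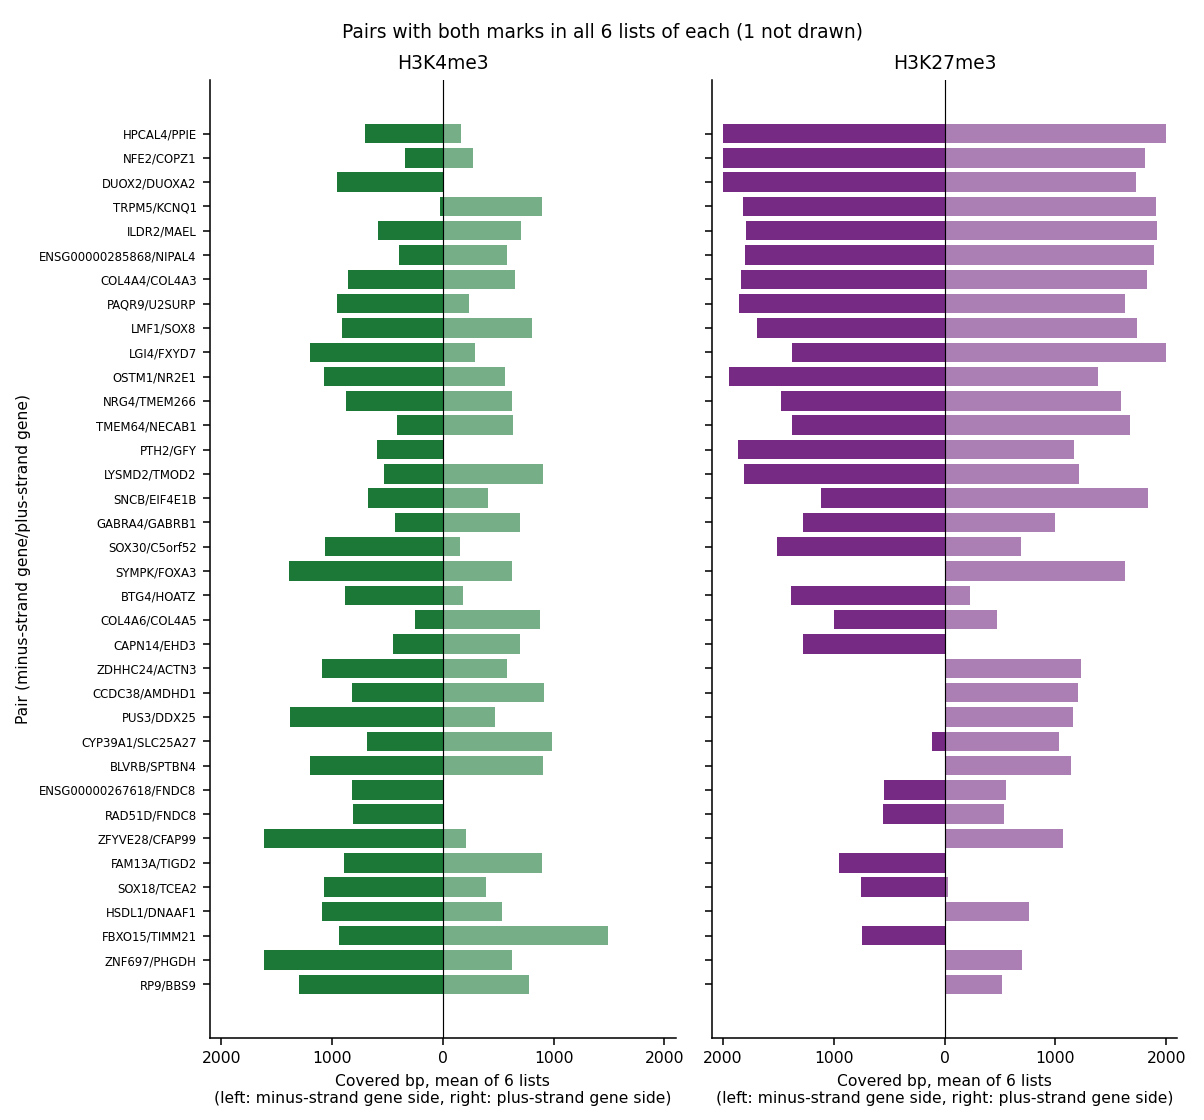
Base pairs covered by H3K4me3 and H3K27me3 on the side of the minus-strand gene (bars to the left) and of the plus-strand gene (bars to the right) of the midpoint, mean of 6 lists, for the pairs with both marks in all lists, except 1 that is not drawn, ordered by H3K27me3. Pairs at the top carry H3K27me3 on both sides, and those that carry it on 1 side only lie in the lower part.

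Several histone gene pairs were among those with the longest H3K27ac. Of the 5 pairs with most H3K27ac among those with H3K4me3 in all lists, 3 were H2AC15/H2BC15, H2BC21/H2AC20 and H2BC11/H2AC11. In H2BC21/H2AC20 the siControl lists had 1666 and 2493 bp, siControl+TGFβ 3344 and 2824 bp, and siPHF13+TGFβ 479 and 3078 bp. The other 2 were CBX5/HNRNPA1, heterochromatin protein HP1 alpha with a splicing factor, and HCFC1/TMEM187, which has the cell cycle cofactor HCFC1. At the other end, H3K27ac was at 0 bp in all 6 lists at BST2/MVB12A, where BST2 is the interferon-induced tetherin, at CFAP90/MTRR, at CYP39A1/SLC25A27 and at both collagen IV pairs.

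Gene groups known for divergent promoters followed the class as a whole. Of the 16 classic pairs taken from earlier work on bidirectional promoters, 16 had H3K4me3 in all 6 lists, 13 had H3K27ac in at least 5 and 2, the collagen IV pairs, had H3K27me3, beside 96.4%, 81.1% and 11.2% of all pairs and 61.8%, 38.9% and 38.6% of all windows. SARS2/MRPS12 had the steadiest H3K27ac, with 1530, 1734, 1947, 1928, 1237 and 1766 bp, including the short list. NPAT/ATM, which holds a DNA damage kinase, had 2307 to 2966 bp of H3K4me3 and 162 to 1817 bp of H3K27ac, the lowest being that of siPHF13+TGFβ replicate 1.

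Of 41 pairs with a gene of DNA repair or replication, 40 had H3K4me3 in all lists and 31 had H3K27ac in at least 5. The exception was PRSS54/GINS3, whose nearest H3K4me3 peak lay 41870 bp away, and H3K27me3 was found at 3 of the 41. All 18 pairs with a gene of the mitochondrial ribosome had H3K4me3 in all lists, 17 had H3K27ac in at least 5 and 0 had H3K27me3. TCP1/MRPL18, a chaperonin subunit with a ribosomal protein, had the longest H3K4me3 of these, 2996 bp, and 1694 bp of H3K27ac. Of 28 pairs with a gene of the respiratory chain, 27 had H3K4me3 in all lists, 24 had H3K27ac in at least 5 and 1, NDUFA8/MORN5, had H3K27me3 in any. All 3 pairs with a tRNA synthetase had H3K4me3 in all lists and H3K27ac in at least 5.

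The 12 histone pairs were less uniform. H3K4me3 was in all lists at 10, in 5 of 6 at H3C7/H2BC9 and in none at H2AC1/H2BC1, and H3K27ac was in at least 5 lists at 9. The median H3K27ac length was 1807 bp at histone pairs and 1028 bp at all pairs. All 30 pairs with a zinc finger gene had H3K4me3 in all lists, 25 had H3K27ac in at least 5 and 2 had H3K27me3 in any. Only 1 pair held a gene of the list of TGFβ response and epithelial-to-mesenchymal transition. This was CLDN1/CLDN16, with the tight junction gene CLDN1, where H3K27ac covered 0, 470, 1548, 167, 0 and 1357 bp in the same library order, so that the groups overlapped.

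The first condition comparison asked whether TGFβ altered the marks at pairs. Averaged over all 883 windows, H3K4me3 coverage was 1951 and 2038 bp without TGFβ and 2161 and 2105 bp with it, so both treated libraries were higher. The change was 0.097 on the log2 scale (pooled SD 0.037, n = 2 per group, exact permutation p = 0.333), and 2 libraries against 2 cannot give a smaller p. H3K27ac coverage was 755 and 1027 bp without and 1495 and 1078 bp with TGFβ, a change of 0.53 (pooled SD 0.32, exact permutation p = 0.333). H3K27me3 coverage was 105 and 188 bp without and 140 and 144 bp with TGFβ, with overlapping groups, a difference of mean log2 values of 0.019 (exact permutation p = 1). This was -0.40 without siControl replicate 1, 0.44 without siControl replicate 2 and -0.0021 without siControl+TGFβ replicate 2. Single promoters changed by 0.13, 0.64 and 0.092. The change at pairs minus that at single promoters was -0.036 for H3K4me3, -0.11 for H3K27ac and -0.073 for H3K27me3 (exact permutation p = 0.667, 0.333 and 0.333).

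The second comparison asked what PHF13 depletion altered under TGFβ. H3K4me3 covered 1741 and 2024 bp per pair in siPHF13+TGFβ, below both siControl+TGFβ libraries, a change of -0.18 (pooled SD 0.11, n = 2 per group, exact permutation p = 0.333). H3K27ac covered 137 and 1389 bp and H3K27me3 59.9 and 146 bp, and in both marks the 2 replicates fell on different sides of a siControl+TGFβ library. The changes were -1.54 for H3K27ac (pooled SD 1.69, exact permutation p = 0.667) and -0.60 for H3K27me3 (pooled SD 0.64, exact permutation p = 1). Without siPHF13+TGFβ replicate 1 they became 0.13 and 0.040, and that of H3K4me3 became -0.076. The change at pairs minus that at single promoters was 0.052, 0.066 and 0.088 in the order H3K4me3, H3K27ac and H3K27me3 (exact permutation p = 0.667, 1 and 0.333). The second comparison shares its siControl+TGFβ libraries with the first.

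**Figure D4:**
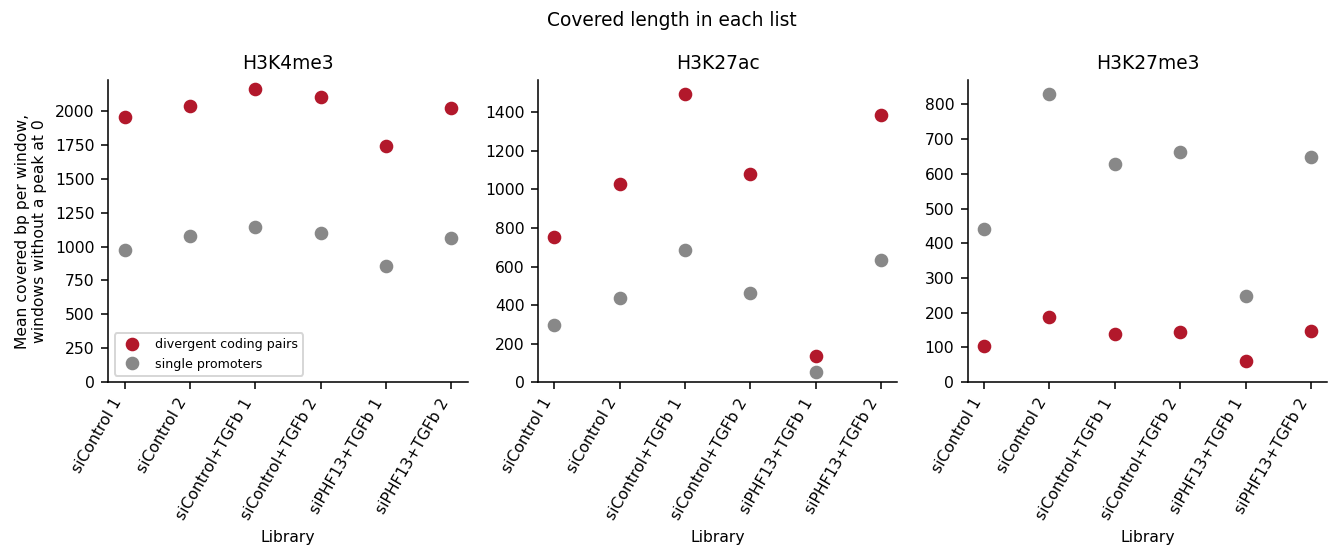
Mean bp covered per window in each list, with windows without a peak counted as 0, for the 883 divergent coding pairs and the 15015 single promoters. Each point is 1 peak list. Pairs and single promoters move together from list to list, and siPHF13+TGFβ replicate 1 is the lowest point of both classes for every mark.

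Single windows gave few changes at pairs. A window gained a peak where both lists of the later group had it and both of the earlier group lacked it, and lost a peak in the reverse case. The shares are of all windows, although only windows without a peak could gain one and only windows with one could lose it. H3K4me3 was in all 6 lists at 851 pairs and in none at 27, so few pairs could gain it. With TGFβ, H3K4me3 was gained at 0 pairs and lost at 0, where 0.296% and 0.0126% of all windows were called. With PHF13 depletion it was also gained at 0 and lost at 0, where 0.0126% and 0.635% of all windows were called. With the strongest 50% of peaks it was gained at 2 pairs with TGFβ and lost at 4 with PHF13 depletion. It was gained with TGFβ at 2 pairs without siControl replicate 2 and at 3 without siControl+TGFβ replicate 2, and without the latter it was lost at 2 with depletion.

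H3K27ac was gained with TGFβ at 9 pairs (1.02%), beside 1.58% of all windows, and lost at 0, beside 0.00629%. The shares of gain do not compare like with like. In siControl replicate 2, H3K27ac was already at 794 of 883 pairs and at 6594 of 15015 single promoters, so few pairs could gain it. The 9 were ATP7B/ALG11, DMGDH/JMY, FAM13A/TIGD2, KCTD19/LRRC36, LYPD5/ZNF283, PYY/NAGS, RNF166/CTU2, SLC35F2/RAB39A and WDCP/FKBP1B, all with H3K4me3 in every list. ATP7B/ALG11, a copper transporter with a glycosylation enzyme, had 0 and 0 bp without TGFβ, 1134 and 513 bp with it, and 0 and 870 bp with PHF13 depleted. SLC35F2/RAB39A had 0 and 0, 887 and 603, and 0 and 236 bp, and LYPD5/ZNF283 had 0 and 0, 680 and 260, and 0 and 460 bp. With PHF13 depletion H3K27ac was gained at 0 pairs, beside 0% of all windows, and lost at 3 (0.340%), beside 0.245%. These were WDCP/FKBP1B, with 684 and 399 bp in siControl+TGFβ, KCTD19/LRRC36, with 508 and 292 bp, and PYY/NAGS, with 278 and 63 bp, and each had 0 and 0 bp in both other groups. They are 3 of the 9 gained with TGFβ, and both comparisons use the same siControl+TGFβ lists. When all H3K27ac lists were cut to the length of the shortest, 19 pairs gained and 16 lost H3K27ac with TGFβ, and 8 gained and 18 lost it with PHF13 depletion, so these counts depended on the length of the lists. Single libraries weighed on them too, with 80 gained without siControl replicate 2, 19 gained without siControl+TGFβ replicate 2, and 471 lost to depletion without siPHF13+TGFβ replicate 2.

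H3K27me3 was gained at 0 pairs and lost at 3 with TGFβ, where 0.277% and 0.629% of all windows were called. Those lost were LCP1/LRRC63, NDUFA8/MORN5 and H2AC1/H2BC1, and at H2AC1/H2BC1 the coverage in siControl was 284 and 1 bp. With PHF13 depletion it was gained at 0 and lost at 6 pairs (0.680%), where 0.107% and 1.33% were called. Only windows with H3K27me3 could lose it, and siControl+TGFβ replicate 1 had it at 74 of 883 pairs and at 4553 of 15015 single promoters. The 6 were GON4L/SYT11, GPC2/STAG3, PLAG1/CHCHD7, PRDX2/THSD8 and the 2 overlapping pairs BTK/RPL36A and BTK/RPL36A-HNRNPH2. PRDX2/THSD8, which has the peroxiredoxin PRDX2, had 171 and 1332 bp with TGFβ alone, 0 and 0 bp with PHF13 depleted, and 0 and 1232 bp without TGFβ. GPC2/STAG3 had 0 and 1649, 735 and 893, and 0 and 0 bp in the 3 groups. H3K27me3 losses also turned on single libraries, with 12 pairs lost to TGFβ without siControl replicate 1, and 22 lost to depletion without siPHF13+TGFβ replicate 2. All but PLAG1/CHCHD7, with 137 and 508 bp, lacked H3K27me3 in 1 siControl list.

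The length of H3K4me3, H3K27ac or H3K27me3 in a window was then tested with limma over all windows with a peak in all 6 lists of the mark, 9828 windows (851 pairs), 2496 (321 pairs) and 2556 (41 pairs). With TGFβ, 0 windows were called at an adjusted p under 0.05 for H3K4me3 (0%), H3K27ac (0%) or H3K27me3 (0%), and with PHF13 depletion 0 were called again for H3K4me3 (0%), H3K27ac (0%) and H3K27me3 (0%). At an unadjusted p under 0.05, H3K4me3 was wider with TGFβ at 16 pairs, beside 2.77% of all windows, and narrower at 0, beside 0.0102%. With PHF13 depletion it was wider at 1 pair, beside 0.0102%, and narrower at 72, beside 9%. When each list was centred on its median length, H3K4me3 was wider at 11 and narrower at 3 pairs with TGFβ, beside 165 and 62 of all 9828 windows. With PHF13 depletion and the same centring it was wider at 8 and narrower at 15 pairs, beside 102 and 240 windows. For H3K27ac, 0 pairs passed with TGFβ, beside 0.0801% of all windows, and 1 with PHF13 depletion, beside 0.24%, and for H3K27me3 0 and 0 passed, beside 0.274% and 1.21%. The median log2 change of H3K4me3 was 0.093 at pairs and 0.11 over all windows with TGFβ, and -0.17 and -0.20 with PHF13 depletion. When siPHF13+TGFβ replicate 2 was left out, the short list stood alone for its group. The median changes at pairs with PHF13 depletion were then -0.27 for H3K4me3, -2.31 for H3K27ac and -0.92 for H3K27me3. Over all windows they were -0.31, -2.29 and -1.16. Without replicate 1 the median changes at pairs were -0.078, 0.10 and 0.056.

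The share of central 300-bp stretches with a given short string differed between classes, and these differences were not tested. The ETS string was found at 242 pairs (27.4%), beside 10.9% of all 15898 windows, 9.96% of single promoters and 14.8% of single promoters with H3K4me3 in all 6 lists. The string TCTCGCG was found at 10.2% of pairs and 4.18% of all windows, the NRF1 site at 11.0% and 5.02%, YY1 at 9.06% and 6.01%, and the CRE at 6.57% and 3.87%. The SP1 box was found at 70.9% of pairs, 53.3% of all windows and 71.6% of single promoters with H3K4me3, so that pairs stood no higher than the latter. The CCAAT box was at 40.0% and 33.9%, and the E-box at 10.2% and 7.54%. A TATA box was at 5.10% of pairs, 9.83% of all windows and 4.53% of single promoters with H3K4me3, and the AP-1 string at 2.04% and 4.07%. Single promoters with a divergent lncRNA had the ETS string at 17.4%, TCTCGCG at 7.63%, the NRF1 string at 6.99%, the SP1 box at 76.4% and the CRE at 6.75%, so that the last 2 were no rarer there than at pairs. These are matches to letters, and a pair window can hold the start sites of 2 genes where a single window holds 1.

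**Figure D5:**
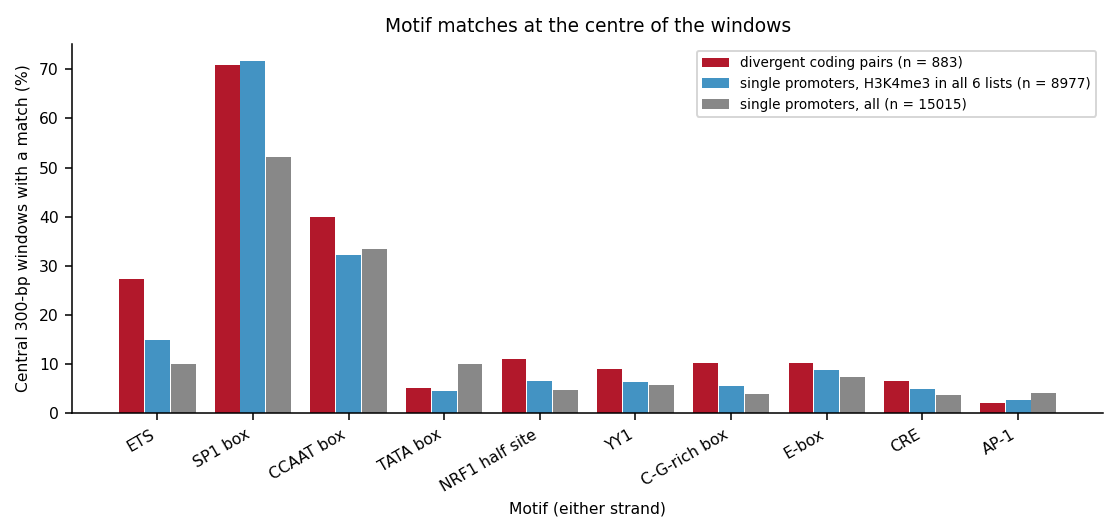
Share of central 300-bp windows (%) with at least 1 match to each short string on either strand, for divergent coding pairs, single promoters with H3K4me3 in all 6 lists and all single promoters. The bar named C-G-rich box is the string TCTCGCG. The ETS bar is 27.4% at pairs against 14.8% and 9.96%, while the SP1 bar is level between pairs and single promoters with H3K4me3 (70.9% and 71.6%).

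The strings varied with spacing and with H3K27me3. The ETS string was at 37.6% of pairs up to 100 bp apart, 25.9% of those over 100 and up to 300 bp apart and 10.1% of those further apart. In this last class the 300-bp stretch lies between the 5′ ends and reaches neither, so the classes do not compare the same part of the promoter. The CCAAT box went the other way, at 28.3%, 48.0% and 46.2%. Among the 41 pairs with H3K27me3 in all 6 lists, 6 (14.6%) had the ETS string, 1 (2.44%) had TCTCGCG and 1 had a TATA box, which was that of DUOX2/DUOXA2 printed above. Among the 784 pairs without H3K27me3 in any list, 29.6% had the ETS string and 10.7% TCTCGCG. The median CpG ratio was 0.722 with H3K27me3 in all lists and 0.886 without it in any.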

How the data were processed

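Per the labels, crosslinked PANC-1 chromatin was sonicated, immunoprecipitated and sequenced. According to the submitters' processing notes, the tools were Trim Galore 0.4.1, Bowtie2 2.4.1, Picard, MACS2 2.2.7.1 and deepTools 3.5.0, with hg19. The authors called peaks in each library against input, narrow for H3K4me3 and H3K27ac and broad for H3K27me3. For each peak the authors deposited a score, the fold over background, and p-value and q-value as −log10. These rank or filter peaks within a list. The lowest −log10 q was 1.30 in narrow lists, below the threshold the study states, and 1.00 in H3K27me3 lists. The 6 inputs were not analysed here.

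Gene 5′ ends came from GENCODE release 44 on GRCh37, whose sequences are those of hg19, without chromosome Y. Of the coding genes, 3380 lay in neither class. Covered bp were summed with NumPy 2.4.6 in Python 3.11.15 over merged peaks, a window had a peak if at least 1 bp was covered, and the code was tested on simulated data. Pairs were set against single promoters by an exact sign-flip test over 6 libraries, adjusted by Benjamini-Hochberg over 3 marks, and conditions by exact permutation of 2 libraries against 2. Lengths per window were tested with limma 3.58.1 in R 4.3.3 on log2 bp, with Benjamini-Hochberg adjustment over all windows. Lists were also filtered, cut or set to equal length, the windows and classes were varied, and each library was left out.

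The pairs, gene lists, strings and tests were chosen with earlier results of these data known. The text names the classic pairs, pairs that gained or lost a peak, those with most H3K27me3 or with both H3K4me3 and H3K27me3, those without H3K4me3, those with most or least H3K27ac, the most uneven ones and up to 4 members or the exceptions of each list. Values of 2 pairs are not reported here, though they are counted in the totals. The side-by-side account of the 13 one-sided pairs and the tests of spacing within libraries were chosen after the values were seen.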

Additional observations from a re-analysis of the deposited data

How the results depend on the processing

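Presence, covered length and the less covered side kept their direction against single promoters under every alternative, and their adjusted p stayed at 0.03125 or 0.046875 except as follows. With the strongest 50% of peaks, the H3K27me3 length ratio (-0.28) and less covered side (-240 bp) were at 0.0625, as was the H3K27ac ratio (0.15) with a minimum of 200 bp. Without siPHF13+TGFβ replicate 1, chosen after seeing the data, the smallest exact p is 0.0625. Presence was then 33.6, 44.5 and -22.0 points, length 0.32, 0.21 and -0.32, and the less covered side 354, 144 and -239 bp (H3K4me3, H3K27ac, H3K27me3). CpG in 300 bp and windows with H3K4me3 were also chosen after seeing the data.

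The change at pairs minus single promoters reversed for H3K27ac in lists of equal length (0.0047 with TGFβ, -0.071 with PHF13 depletion) and for H3K27me3 with PHF13 depletion in 1-kb windows (-0.067). Leaving out 1 library gave these ranges with TGFβ and then PHF13 depletion: H3K4me3 0.066 to 0.13 and -0.29 to -0.076, H3K27ac 0.29 to 0.76 and -3.21 to 0.13, H3K27me3 -0.40 to 0.44 and -1.24 to 0.040. Minus single promoters, the ranges were -0.075 to 0.0034 and 0.0081 to 0.095, -0.16 to -0.057 and -0.050 to 0.18, and -0.11 to -0.039 and 0.036 to 0.14.

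Counts of gained and lost pairs moved with list length. The strongest 50% of peaks gave 2 H3K4me3 gained with TGFβ and 4 lost with depletion, 40 H3K27ac gained with TGFβ and 8 lost with depletion, and 2 H3K27me3 gained and 1 lost with TGFβ. Lists of equal length gave, for H3K27ac, 19 gained and 16 lost with TGFβ and 8 gained and 18 lost with depletion, and for H3K27me3 4 gained and 0 lost with TGFβ. Windows of 1 kb gave 1 H3K4me3 gained with TGFβ, 1 lost with depletion, and 1 H3K27me3 gained and 1 lost with TGFβ, and a minimum of 200 bp gave 0 H3K27me3 lost with TGFβ. Leaving out 1 library gave 0 to 3 H3K4me3 gained and 0 to 0 lost with TGFβ, 0 to 0 gained and 0 to 2 lost with depletion, 9 to 80 H3K27ac gained and 0 to 1 lost, then 0 to 2 gained and 3 to 471 lost, and 2 to 10 H3K27me3 gained and 3 to 12 lost, then 0 to 5 gained and 6 to 22 lost. With depletion, limma called 0 to 10 H3K4me3 pairs, 0 to 317 H3K27ac pairs and 0 to 8 H3K27me3 pairs, the highest without siPHF13+TGFβ replicate 2.

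Same-numbered libraries did not deviate together in every pair of groups (correlations of -0.34 to 0.51 across windows), so the numbers were not used to pair them. With 2 libraries a group, these correlations cannot tell whether same-numbered libraries were made together. With the replicate number as a block, limma called 0 pairs in each comparison, and 0 with the siControl+TGFβ numbers exchanged. The mean within-number changes equal the unpaired ones (H3K4me3 0.097 and -0.18). Centring each list on its median left 0 pairs called by limma. Read depth was not used, and a longer list covers more of a window.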
